A study of Mus musculus with 5 samples.

Results

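Expression of 32 genes that supply amino acids for protein synthesis was examined in long-lived plasma cells (PCs) of the bone marrow (BM), directly ex vivo and after culture. They comprised 12 enzymes that make amino acids or the folate-bound carbon units derived from serine, 8 amino acid carriers of the plasma membrane and 12 cytosolic aminoacyl-tRNA synthetases. The members were taken by gene symbol from a list of this pathway, and each gene was represented by the probe set that matched no other gene and had the highest mean log2 level over the 5 arrays. Of the 32 genes, 31 had such a probe set and 29 passed the filter on dim signals, out of 13578 genes tested and 18193 genes with a single-gene probe set. All 29 tested members lay above the filter's floor, a log2 level of 5.64, on all 5 arrays. Pycr1 had no single-gene probe set, and Cth and Slc7a11 were below the floor on at least 4 arrays.

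PCs came from C57BL/6J mice primed with NP-CCG (so spelled in the labels, and NP-CGG in the study's methods) in incomplete adjuvant and boosted with the same antigen. Cells expressing B220 or CD49b were depleted from BM, and CD138high cells were then enriched magnetically. The 2 ex vivo arrays, 1 from each of 2 experiments, hold PCs lysed directly after isolation. The 3 cultured arrays, 1 from experiment 1 and 2 from experiment 2, hold PCs kept for 3 days on ST2 cells, a fibroblast-like stromal line first derived from BALB/c BM, with the cytokine APRIL at physiological oxygen. Cultured PCs were sorted by flow cytometry before lysis and ex vivo PCs were not, so that culture and sorting cannot be told apart. The labels give neither the age of the mice nor how many were pooled. They do not say whether both cultured arrays of experiment 2 came from separate cultures, so p-values measure the spread between arrays, which may be technical.

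A PC secretes antibody continuously and therefore consumes amino acids at a high rate. Nonessential amino acids are made in the cell, others are taken up by carriers, and each is then joined to its tRNA by a dedicated synthetase before the ribosome can use it. When amino acids run short or the endoplasmic reticulum is stressed, kinases phosphorylate eIF2α, and the transcription factor ATF4 is translated and switches on many genes of these classes. ATF4 binds with C/EBP partners to an element known as CARE, the C/EBP-ATF response element.

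Because many members are textbook ATF4 targets, the promoter sequences that carry the core letters of this element are shown first. The letters TGATGNAA (TTNCATCA on the other strand) were searched from 250 bases before to 50 bases after each start site in RefSeq sequence of mouse build GRCm38.p6. Of the 23 members with an entry, 8 held them (34.78%), against 4.51% of all 27025 genes with an entry. Aars and Slc7a11 each held 2 matches. Each window below starts 30 bases before the first match, reads 5′ to 3′ on the strand of the gene, and has the matched letters in capitals.
Asns (chr6:7693205-7693262, minus strand): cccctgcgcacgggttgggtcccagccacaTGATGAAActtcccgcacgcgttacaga
Slc1a4 (chr11:20332690-20332747, minus strand): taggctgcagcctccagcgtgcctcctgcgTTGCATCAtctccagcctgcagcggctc
Slc7a11 (chr3:50443633-50443709, minus strand): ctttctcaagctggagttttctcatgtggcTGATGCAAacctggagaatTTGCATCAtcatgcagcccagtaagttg
Aars (chr8:111033700-111033871, plus strand): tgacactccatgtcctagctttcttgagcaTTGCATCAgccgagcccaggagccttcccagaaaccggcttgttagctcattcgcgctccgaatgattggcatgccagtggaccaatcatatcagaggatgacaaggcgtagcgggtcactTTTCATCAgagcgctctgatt
Gars (chr6:55037941-55037998, plus strand): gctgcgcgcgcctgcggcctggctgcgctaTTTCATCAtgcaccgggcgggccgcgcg
Iars (chr13:49682107-49682159, plus strand): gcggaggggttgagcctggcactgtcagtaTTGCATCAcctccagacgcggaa
Tars (chr15:11399646-11399703, minus strand): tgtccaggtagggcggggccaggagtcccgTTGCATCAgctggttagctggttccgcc
Yars (chr4:129189876-129189932, plus strand): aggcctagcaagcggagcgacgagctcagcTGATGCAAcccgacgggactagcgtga
The match began 23 bases before the start site in Asns, 30 bases before it in Gars and 15 bases before it in Tars. The E-box letters CACGTG, which MYC can bind, lay in the searched stretch of 5 members (Aars, Aldh18a1, Cbs, Iars and Tars), 21.74% of those with an entry, against 8.09% of all genes. None of the shorter windows printed holds these letters whole. A match is a description of the letters and not of binding.

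The summed intensity of 24 stromal markers was 1973.4 and 2047.2 ex vivo, 7906.1 in the cultured array of experiment 1 and 19739.1 and 19708.7 in those of experiment 2. Of these markers, 15 of 22 tested were called higher with the experiment as a block and 1, Vcam1, lower, and without the block 2 (Cav1 and Pcolce) were called higher and 0 lower, while Lum and Postn stayed below the floor on all arrays. The summed level was thus higher in all 3 cultured arrays than in both ex vivo arrays, and most so in experiment 2. The sums of the 14 PC markers, among them Xbp1, Jchain and Sdc1, ran from 81973.1 to 83896.9 ex vivo and from 74910.2 to 75816.4 after culture, and none of these markers was below the floor on all arrays. The sum of 11 macrophage markers ran from 1574.2 to 1976.3 ex vivo and from 1526.7 to 1900.2 after culture, and that of 9 neutrophil markers from 597.6 to 942.5 and from 477.4 to 488.6. For 8 B cell markers the sums were 5488.5 to 6343.0 and 5876.2 to 6467.4, and for 7 T and NK cell markers 1256.0 to 1707.2 and 1331.5 to 2039.4. Sums of PC and neutrophil markers were lower in all 3 cultured arrays, and the other 3 overlapped between the groups. Sums follow the brightest marker, and single markers went apart. Of the macrophage markers, 6 of 8 tested were lower in both experiments, against 9646 of all 30477 tested probe sets. C1qa, C1qb and Mrc1 were called lower with the block, whereas Cd68, the brightest, was called higher. Of the B cell markers, 5 of 7 tested were lower in both experiments, and Dntt and Cd72 were called lower with the block, whereas the bright Ms4a1 and Cd79b were not called. Of the T and NK cell markers, 2 of 5 tested were higher in both experiments, against 29.1% of all probe sets, and 2 were lower in both. Cd4 was higher by 0.90 and 1.11 in the 2 experiments and was not called, whereas Gzma was called lower with the block. Without the block, C1qa alone was called among the markers of these 3 cell types. The part of these cells in the members' values was not tested. Control probe sets at both ends of a transcript gave 3′ minus 5′ log2 signals of 0.31 ex vivo and 0.77 in culture for Actb in experiment 1, whereas its 3 values of experiment 2 lay from -0.12 to -0.009. The values of Gapdh were 0.74 and 0.63 in the former, and 0.28 to 0.34 in the latter.

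Most of the 29 tested members stood higher after culture, and the median difference was larger in experiment 1. The list was chosen with earlier results of these data known, and the synthetases outside it, given below, had lower medians than its own. In experiment 1, 27 of 29 members had the higher level in the cultured array (93.1%), against 48.7% of all 30477 tested probe sets, and their median difference was 0.45 on the log2 scale. Each member counts as 1 probe set, the brightest of its gene, whereas all tested probe sets include several per gene and needed no gene symbol. In experiment 2 the median was 0.13 for the mean of both cultured arrays, which are set against the same ex vivo array, and 22 of 29 members were higher. In both experiments together 20 members were higher (69.0%), against 29.1% of all probe sets. The count lower in both was 0, against 9646 of the 30477 probe sets. The 3 cultured arrays lay above both ex vivo arrays for 9 members (31.0%), against 9.42% of all probe sets. In bulk RNA, fewer cells of a type and less RNA per cell cannot be told apart, and the part of stromal RNA in these differences was not tested.

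Few of these differences passed the test. In the limma fit of culture alone, 0 of 29 members reached an adjusted p under 0.05. In that fit 0.0164% of all probe sets were called higher and 0.0295% lower. At an unadjusted p under 0.05, Asns and Mthfd1l were higher (6.9% of members), against 3.98% of all probe sets, and 0 members were lower. With the other probe set of Asns the unadjusted p was 0.46 (limma). With the experiment as a block, 1 of 29 members was called, Mthfd1l, which rose. In that fit 1.24% of all probe sets were called higher and 0.561% lower. At an unadjusted p under 0.05 with the block, 8 members were higher, against 11.1% of all probe sets. These were Asns, Psat1, Shmt1, Shmt2, Mthfd1l, Aldh18a1, Slc1a4 and Iars.

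**Figure D1:**
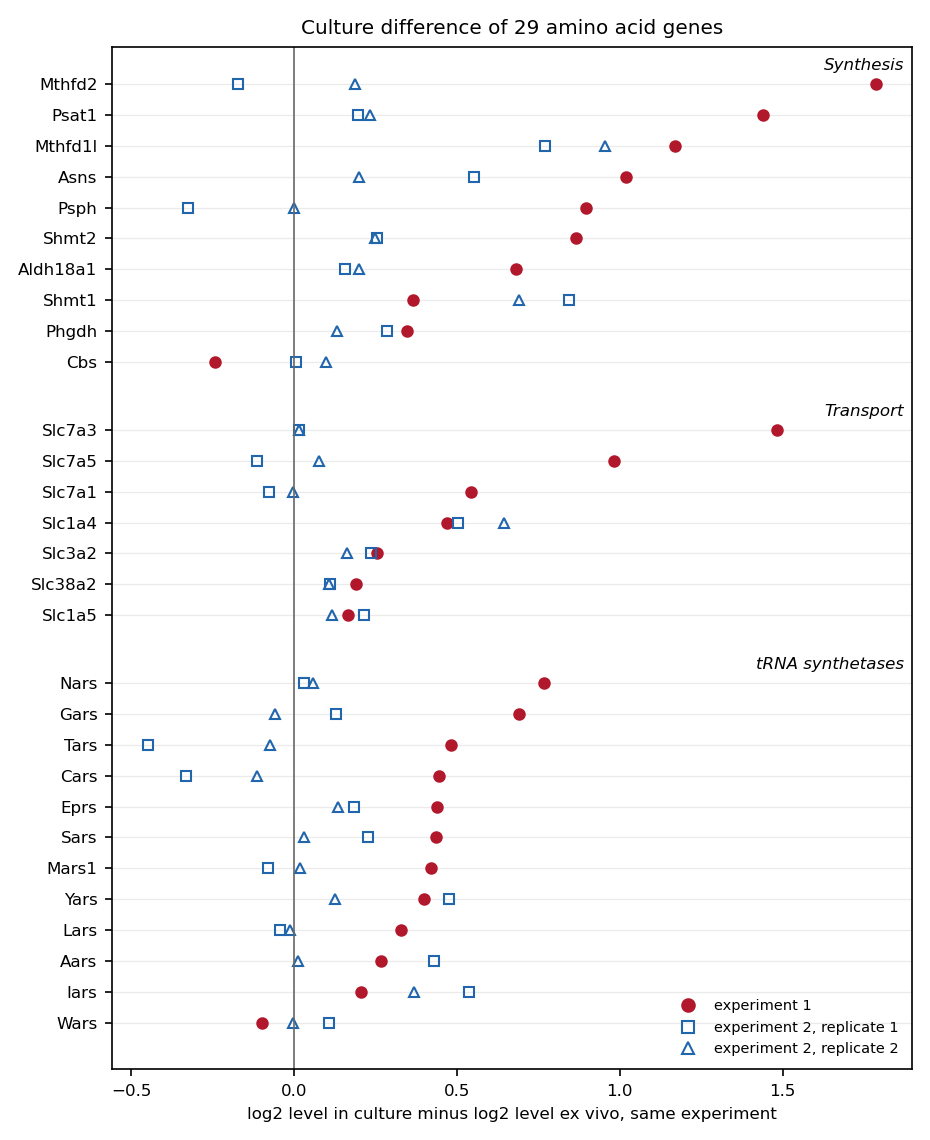
Log2 level in culture minus log2 level ex vivo within each experiment (x axis) for the 29 tested members (rows), grouped by class and ordered by experiment 1. Filled circles are experiment 1, open squares and triangles the 2 cultured arrays of experiment 2, which share 1 ex vivo array; 27 of 29 filled circles lie above 0.

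Array values below are log2 RMA intensities, given for experiments 1 and 2 ex vivo, and then for experiment 1 and replicates 1 and 2 of experiment 2 after culture.

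Among the enzymes, the only member called was Mthfd1l, the mitochondrial synthetase that releases formate from folate for use in the cytosol. Mthfd1l read 8.01 and 7.76 ex vivo and 9.18, 8.53 and 8.71 after culture. All 3 cultured arrays lay above both ex vivo arrays, with means of 7.89 ± 0.18 ex vivo (SD, n = 2) and 8.81 ± 0.34 after culture (SD, n = 3). The level in culture was 2.25-fold that ex vivo in experiment 1 and 1.82-fold in experiment 2. With the experiment as a block the log2 difference was 0.99 with an SE of 0.13 (limma, adjusted p = 0.0333). Without the block it was 0.92 with an SE of 0.24 (limma, adjusted p = 0.502). With the block, the adjusted p was 0.131 when replicate 2 of experiment 2 was left out and 0.0756 when both cultured arrays of that experiment were averaged (limma).

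Asns makes asparagine from aspartate and glutamine. It read 11.59 and 11.96 ex vivo and 12.61, 12.52 and 12.16 after culture, so that the groups did not overlap with the probe set used. The difference was 1.02 in experiment 1 and 0.38 in experiment 2, and 0.65 in the fit of culture alone, with an SE of 0.21 (limma, adjusted p = 0.639). The other probe set of Asns read 11.58 and 10.57 ex vivo and 12.49, 11.28 and 10.83 after culture. There the groups overlapped, and the differences were 0.92 and 0.48 within the experiments. The match of the Asns promoter to the CARE letters is shown above.

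Phgdh, Psat1 and Psph catalyze, in that order, the steps from phosphoglycerate to serine. Psat1 read 10.28 and 10.59 ex vivo and 11.72, 10.78 and 10.82 after culture. Its cultured array of experiment 1 stood apart from the other 4, at 2.72-fold the level of the ex vivo array of that experiment, whereas experiment 2 gave 1.16-fold. Psph read 9.31 and 9.53 ex vivo and 10.20, 9.20 and 9.53 after culture, again with the cultured array of experiment 1 highest. Phgdh, measured by a probe set of a type whose probes may also match other transcripts, read 12.35 and 11.25 ex vivo and 12.70, 11.53 and 11.38 after culture. Both arrays of experiment 1 were above all 3 of experiment 2, and the culture difference was 0.35 and 0.21 in the 2 experiments. The fitted culture difference was 0.071 for the probe set used, and over its 4 probe sets it ran from -0.05 to 0.27, with 1 below 0.

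Serine hydroxymethyltransferases pass a carbon unit from serine to folate and leave glycine. The mitochondrial Shmt2 read 11.20 and 11.25 ex vivo and 12.07, 11.50 and 11.50 after culture, and the groups did not overlap. Its probe set was of the same type as that of Phgdh, and the groups did not overlap with its other probe sets either. The cytosolic Shmt1 read 8.31 and 9.43 ex vivo and 8.67, 10.27 and 10.12 after culture, the opposite order of experiments to Phgdh. The groups overlapped, and both arrays of experiment 1 lay below all 3 of experiment 2, while the cultured level was higher by 0.36 and 0.77 within the 2 experiments. With the block the difference of Shmt1 was 0.59 with an SE of 0.14 (limma, adjusted p = 0.111). Mthfd2, which oxidizes folate-bound carbon in mitochondria, read 9.74 and 10.20 ex vivo and 11.52, 10.03 and 10.39 after culture. Its 3.45-fold difference in experiment 1 was the largest of any member in either experiment, and the value in experiment 2 was 1.01-fold.

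Aldh18a1 starts proline synthesis from glutamate. It read 10.68 and 10.79 ex vivo and 11.36, 10.95 and 10.99 after culture, without overlap between the groups. Its probe set was also of the type used for Phgdh. The groups overlapped with some of its other probe sets, though not with the probe set of another type. Cbs and Cth form the transsulfuration route to cysteine. Cbs read 7.83 and 7.81 ex vivo and 7.59, 7.82 and 7.91 after culture, the smallest fitted difference of its class at -0.05 (limma, adjusted p = 0.961). Cth, which was not tested, read 4.96 and 5.08 ex vivo and 6.21, 5.18 and 5.27 after culture, so that only the cultured array of experiment 1 exceeded the floor.

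**Figure D2:**
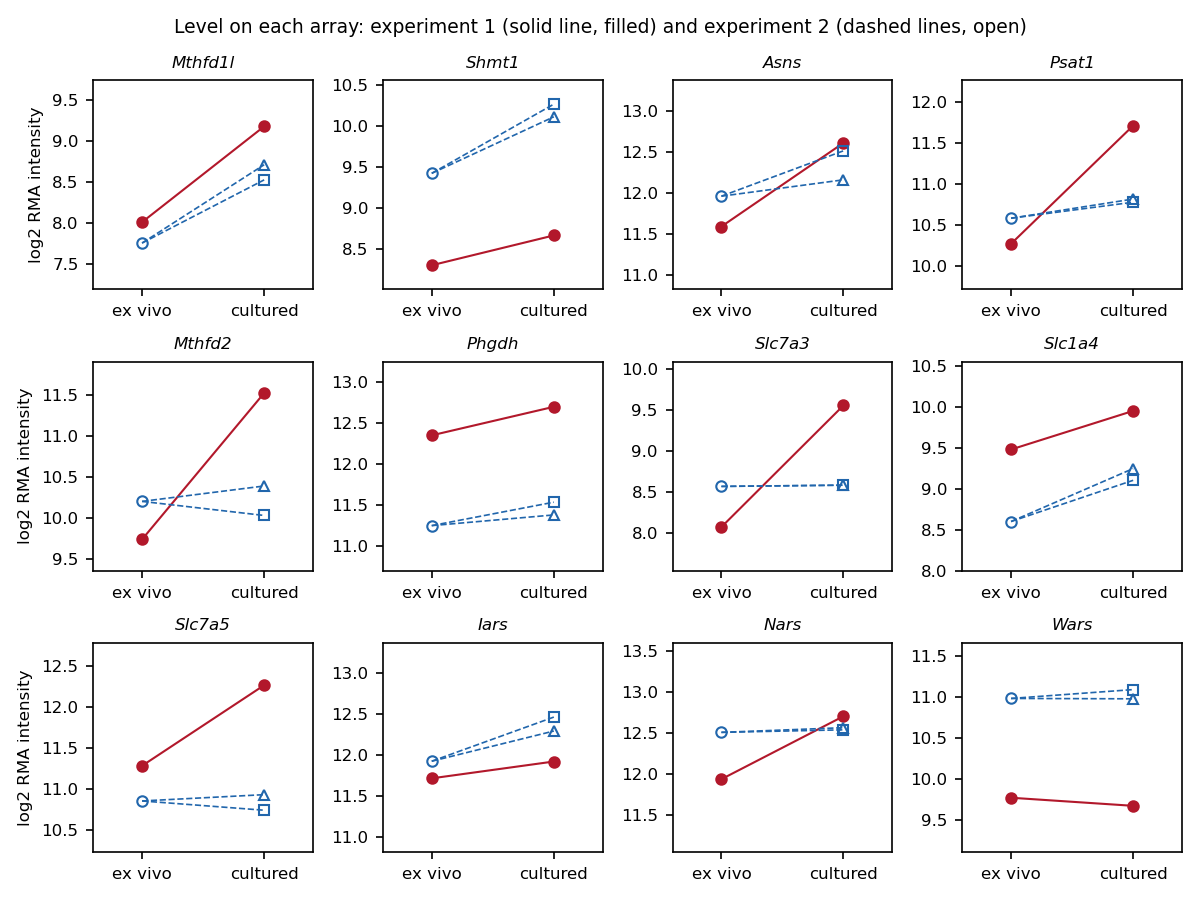
Log2 RMA intensity (y axis, with the same span but another start in each panel) ex vivo and after culture for 12 members. Solid lines join the arrays of experiment 1 and dashed lines those of experiment 2; Mthfd1l is higher in culture along all 3 lines, whereas Psat1, Mthfd2, Slc7a3 and Slc7a5 are steep in experiment 1 alone, and Shmt1, Phgdh and Wars are split by experiment.

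Among the 7 tested carriers, all were higher in the cultured array of experiment 1, and 0 were called. Slc7a3 and Slc7a1 import arginine, lysine and ornithine. Slc7a3 read 8.08 and 8.57 ex vivo and 9.56, 8.59 and 8.59 after culture. The cultured array of experiment 1 had 2.8-fold the level of its ex vivo array, and in experiment 2 the log2 difference was 0.015. Slc7a1 read 10.80 and 10.93 ex vivo and 11.34, 10.86 and 10.93 after culture, with the cultured array of experiment 1 above 4 arrays that lay between 10.80 and 10.93.

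Slc7a5 and Slc3a2 are the light and heavy chains of the exchanger that imports leucine and other large neutral amino acids. Slc7a5 read 11.28 and 10.85 ex vivo and 12.26, 10.74 and 10.93 after culture. The level in culture was 1.98-fold that ex vivo in experiment 1 and 0.988-fold in experiment 2. Slc3a2 read 13.37 and 13.30 ex vivo and 13.63, 13.53 and 13.46 after culture. Its groups did not overlap, although the fitted difference was 0.21 with an SE of 0.13 (limma, adjusted p = 0.86).

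Slc1a4 and Slc1a5 exchange small neutral amino acids such as alanine and serine. Slc1a4 read 9.48 and 8.60 ex vivo and 9.95, 9.10 and 9.24 after culture. Culture differences of 0.47 and 0.57 were seen in experiments 1 and 2. With the block the difference was 0.53 with an SE of 0.11 (limma, adjusted p = 0.0928). Slc1a5 differed by 0.17 and 0.16. Slc38a2, a sodium-coupled importer of neutral amino acids, read 11.98 and 11.58 ex vivo and 12.17, 11.69 and 11.69 after culture. With the probe set used it had the smallest fitted difference among carriers, 0.069 (limma, adjusted p = 0.964). Its other probe sets gave 0.39 and 0.14, the former without overlap between the groups. Slc7a11, which brings in cystine in exchange for glutamate, was below the floor on all arrays, at log2 levels between 3.81 and 3.83, and its promoter held 2 matches to the CARE letters.

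The 12 synthetases had a median of 0.43 in experiment 1 and 0.05 in experiment 2, against 0.88 and 0.21 for synthesis and 0.47 and 0.11 for transport. Over all tested probe sets these medians were 0 and -0.02. In the fit of culture alone the class medians were 0.17 for synthetases and 0.21 for transport, and with the block 0.25 and 0.22, so that their order turned, and the difference between the classes was not tested. Iars, which charges the isoleucine tRNA, had the largest difference of its class in the fit of culture alone and read 11.72 and 11.93 ex vivo and 11.92, 12.46 and 12.29 after culture. Both cultured arrays of experiment 2 exceeded the rest, and this difference was 0.41 with an SE of 0.21 (limma, adjusted p = 0.832). With the block it was 0.35, and 0.35 for Nars. The other probe set of Iars gave 0.046 in the fit of culture alone (limma, adjusted p = 0.99) and 0.28 with the block. On that probe set the cultured array of experiment 1 was the highest, so the rank and the order of arrays belong to the probe set used. Nars, which charges the asparagine tRNA, read 11.93 and 12.50 ex vivo and 12.70, 12.53 and 12.56 after culture. Here the ex vivo array of experiment 1 was low and the other 4 lay between 12.50 and 12.70, beside a difference of 0.77 in experiment 1. Sars, the serine enzyme, also had its lowest value in that ex vivo array, with 11.76 and 12.27 ex vivo and 12.19, 12.50 and 12.30 after culture.

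Aars, the alanine enzyme, read 11.69 and 10.48 ex vivo and 11.96, 10.91 and 10.49 after culture. In the fit of culture alone its difference, 0.034, was the smallest of the class (limma, adjusted p = 0.991). It did not stay so with the block, which gave 0.24 for Aars and -0.013 for Wars, and within the experiments Aars differed by 0.27 and 0.22. Gars, the glycine enzyme, read 11.55 and 11.45 ex vivo and 12.24, 11.58 and 11.39 after culture, and its cultured array of experiment 1 alone stood out. Yars, the tyrosine enzyme, read 9.89 and 10.04 ex vivo and 10.29, 10.51 and 10.16 after culture, without overlap between the groups. Tars and Cars, the threonine and cysteine enzymes, were higher in culture by 0.48 and 0.45 in experiment 1 and stood at -0.26 and -0.22 in experiment 2. Lars and Mars1, for leucine and methionine, gave 0.33 and 0.42 in experiment 1 and -0.028 and -0.032 in experiment 2. Eprs, which charges both the glutamate and the proline tRNA, gave 0.44 and 0.16. Wars, the tryptophan enzyme, gave -0.099 and 0.052, and its 4 probe sets had fitted differences from -0.09 to 0.20, the latter for the probe set used.

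The difference between the experiments was then examined. For 21 of 29 members (72.4%) the culture difference of experiment 1 exceeded both differences of experiment 2, against 41.9% of all probe sets. The cultured array of experiment 1 was the highest of the 5 for 22 of 29 members (75.9%), against 21.2% of all probe sets. Among them were 7 of 7 carriers, with the probe sets used. With another probe set of Slc1a4, Slc1a5, Slc7a1, Aars and Eprs, a cultured array of experiment 2 was the highest. In the limma fit with an interaction of culture and experiment, 0 members were called, and 0% of all probe sets were. Since 3 of its 4 combinations of culture and experiment hold 1 array, its 1 residual degree of freedom comes from the cultured arrays of experiment 2 alone, which may be technical repeats, and its p-values neither support nor limit a difference between the experiments. The culture difference of experiment 2 minus that of experiment 1 ran lowest in Mthfd2, at -1.78, and Slc7a3, at -1.47, and these values are a description. The summed level of stromal markers in culture, by contrast, was lower in experiment 1 than in experiment 2, and its part in these differences was not tested.

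Levels also differed between the experiments irrespective of culture. With culture in the model, 8 of 29 members were called for the experiment (27.6%), against 26.8% of all probe sets, a share close to the background. Shmt1 and Wars were higher in experiment 2, and Phgdh, Slc7a5, Slc1a4, Slc38a2, Aars and Eprs were lower. The largest of these differences were 1.30 for Wars with an SE of 0.11 (limma, adjusted p = 0.00328), 1.35 for Shmt1 with an SE of 0.14 (limma, adjusted p = 0.0043) and -1.24 for Aars with an SE of 0.15 (limma, adjusted p = 0.00598).

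Probe sets of the same gene differed in sign more often for the experiment than for culture in experiment 1. Of 19 members with more than 1 probe set, all of them tested, 18 had 1 sign for the culture difference of experiment 1 over all their probe sets, and 9 had 1 sign for the difference between experiments. The exception for culture in experiment 1 was Cars, whose other probe set differed by 0. The median range over the probe sets of a gene was 0.229 for the culture difference of experiment 1 and 0.685 for the difference between experiments. In experiment 2 the mean culture difference was of mixed sign over the probe sets of Psat1, Phgdh, Cbs, Slc7a1 and Cars. The probe set used for Wars was higher in experiment 2 by 1.30, and the other 3 gave -0.53, -0.46 and 0.12. For Slc1a4 the probe set used gave -0.82, whereas the other 2 gave 1.06 and -0.11, so that this member was called in both directions. For Asns the values were 0.00 and -1.25, for Iars 0.35 and -1.42, and for Aars -1.24 and 0.03. Shmt1, by contrast, was higher in experiment 2 with all 4 of its probe sets, and Phgdh was lower with all 4. The 3′ to 5′ signal of the control transcripts given above also differed between the experiments, and its part in these values was not tested.

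**Figure D3:**
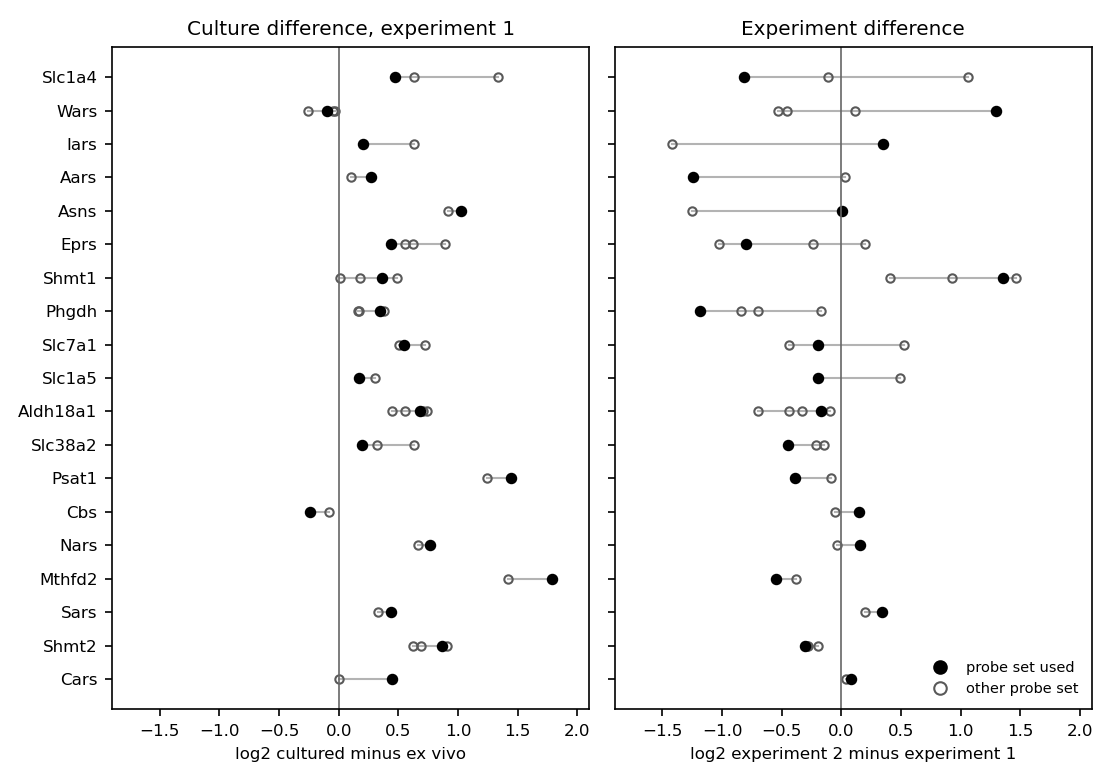
Log2 culture difference in experiment 1 (left) and fitted log2 difference between experiments (right) for every probe set of the 19 members with more than 1. Filled circles are the probe sets used and open circles the others of the same gene, joined by a line; on the left 18 of 19 genes keep 1 sign, and on the right 9 of 19 do.

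Genes of the same functions outside the 32 were set beside them. The other cytosolic synthetases and their complex scaffolds had a median of 0.01 in experiment 1 and -0.04 in experiment 2 over 10 tested genes. With or without the block, limma called 0 of these, and at an unadjusted p under 0.05 the counts were 1 and 0. Of these, Eef1e1 and Aimp1, scaffolds of the multisynthetase complex, had the largest differences in the fit of culture alone, with -0.59 (limma, adjusted p = 0.809) and -0.40 (limma, adjusted p = 0.91). The mitochondrial synthetases, encoded by separate genes and used on mitochondrial ribosomes, had medians of -0.28 and -0.10 over 15 tested genes. Of these, 8 were lower in both experiments, against 9646 of all 30477 tested probe sets, and 0 were higher in both, against 29.1%. Again limma called 0 with or without the block, against 1 and 0 at an unadjusted p under 0.05. Their largest differences in the fit of culture alone were -0.39 for Cars2 (limma, adjusted p = 0.802) and -0.38 for Ears2 (limma, adjusted p = 0.863).

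Other enzymes of amino acid and folate metabolism had medians of 0.08 and 0.03 over 20 tested genes, with 0 called by limma in either fit, against 4 with the block and 1 without it at an unadjusted p under 0.05. Arg2, the mitochondrial arginase, differed by 0.62 (limma, adjusted p = 0.909), and Glul, which makes glutamine, by -0.54 (limma, adjusted p = 0.756). Other carriers had medians of 0.06 and 0.03 over 20 tested genes, and 1 of them was called with the block. This was Slc6a6, the taurine transporter, which read 8.21 and 8.67 ex vivo and 8.97, 9.73 and 9.58 after culture. It rose by 0.89 with an SE of 0.12 (limma with the block, adjusted p = 0.0357; adjusted p = 0.578 without it). Both cultured arrays of experiment 2 were its highest.

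**Figure D4:**
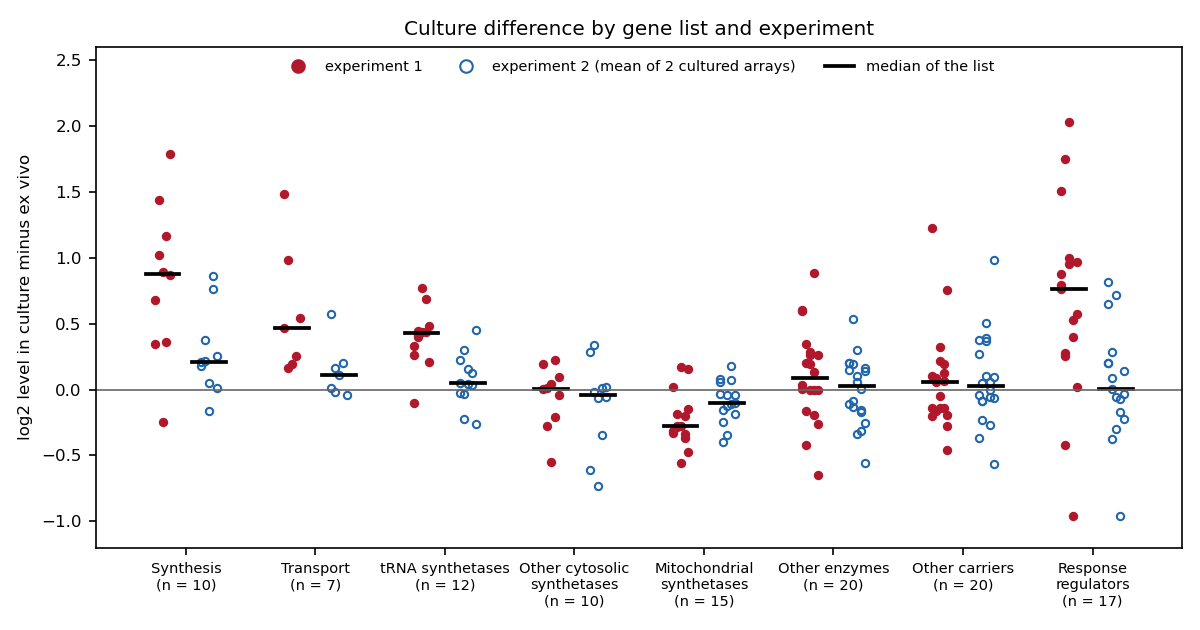
Log2 level in culture minus ex vivo (y axis) for each tested gene of 8 lists, with experiment 1 as filled and experiment 2 as open circles and the median of each list as a bar. The medians of synthesis, transport, synthetases and response regulators are 0.88, 0.47, 0.43 and 0.76 in experiment 1, and those of the other 4 lists lie between -0.28 and 0.08.

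Regulators and further targets of the amino acid response were set against the members next. Over 17 tested genes the median difference was 0.76 in experiment 1 and 0.00 in experiment 2. For 15 of 17 the difference of experiment 1 exceeded both of experiment 2 (88.2%), against the 41.9% of all probe sets given above. Chac1, which degrades glutathione and is a target of ATF4, was called with the block and read 10.14 and 9.85 ex vivo and 11.02, 10.46 and 10.54 after culture. It rose by 0.75 with an SE of 0.12 (limma with the block, adjusted p = 0.0485; adjusted p = 0.679 without it), and its groups did not overlap.

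The following regulators were chosen after their values were seen. Trib3, a pseudokinase that restrains ATF4, read 8.08 and 7.81 ex vivo and 9.83, 8.10 and 8.10 after culture, so that the cultured array of experiment 1 alone stood high. Ddit4, an inhibitor of mTORC1 signalling, read 8.96 and 8.23 ex vivo and 10.99, 8.81 and 9.10 after culture, with the same array highest. Stc2, a secreted stress glycoprotein, read 6.94 and 6.67 ex vivo and 8.45, 7.44 and 7.53 after culture, and all 3 cultured arrays exceeded both ex vivo arrays. Atf4 itself read 12.36 and 11.84 ex vivo and 12.62, 11.90 and 11.78 after culture and was lower in experiment 2, with a log2 difference of -0.68 and an SE of 0.12 (limma, adjusted p = 0.0146). Its culture difference was 0.26 in experiment 1 and 0.002 in experiment 2. The Atf4 values come from 1 of its 3 probe sets, and the others were not compared. Ppp1r15a, which reverses eIF2α phosphorylation, read 11.25 and 10.70 ex vivo and 10.28, 10.05 and 9.44 after culture. All 3 cultured arrays lay below both ex vivo arrays, with a fitted difference of -1.05 and an SE of 0.32 (limma, adjusted p = 0.592).

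**Figure D5:**
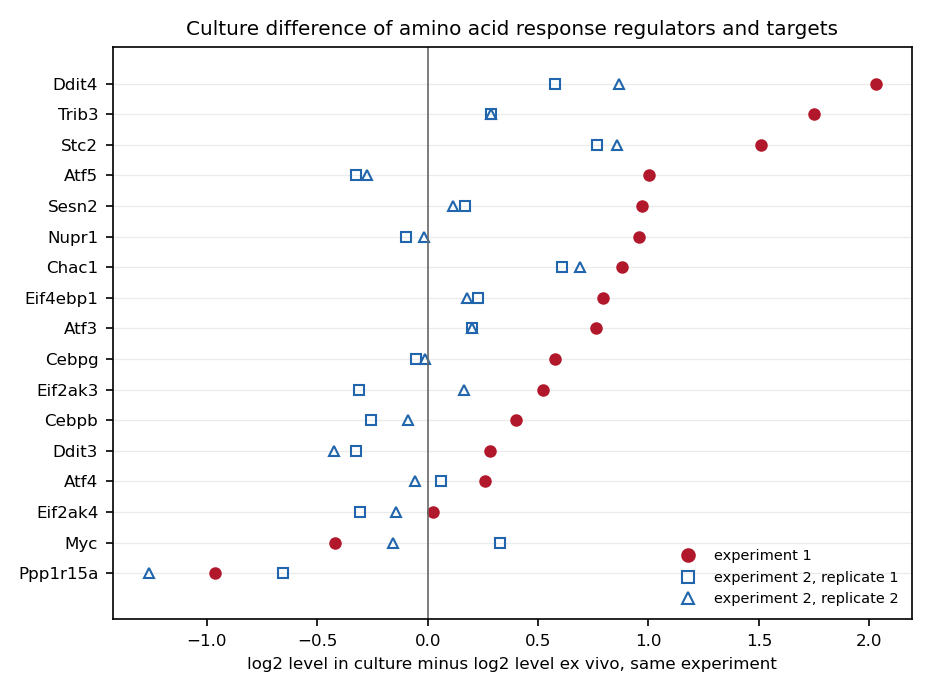
Log2 level in culture minus log2 level ex vivo within each experiment (x axis) for 17 tested regulators and targets of the amino acid response (rows), ordered by experiment 1. Filled circles are experiment 1 and open symbols the 2 cultured arrays of experiment 2; for 15 of 17 genes the filled circle lies to the right of both open symbols.

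Members with and without the CARE letters in the promoter overlapped in the size of their differences. The 7 tested members that held them had a median of 0.47 in experiment 1, with a range from 0.21 to 1.02, and the 15 tested members with an entry and no match had 0.44, with a range from -0.24 to 1.79. In experiment 2 the medians were 0.30 and 0.16. Mthfd2, Psat1 and Mthfd1l, with the highest differences in experiment 1 among members with an entry, held none in this window.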

How the data were processed

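Expression was measured on Affymetrix mouse expression arrays, 2 ex vivo and 3 cultured. The deposited values are RMA intensities on the linear scale, 1 per probe set, that the authors made from raw signals with the affy R package; the labels also name GCOS, with no version, and a genome build is not given in the sources used here. Array medians of the deposited intensity ran from 87.05 to 94.14. Arrays give no counts, so that their number limits precision.

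Values were converted to log2. The files hold 45101 probe sets, 64 of them controls that were not used. Of the other 45037, 34945 had 1 gene symbol, 932 several and 9160 none in GEO's platform annotation, with symbols updated through gene identifiers to RefSeq. A probe set was tested if its intensity was at least 50 on at least 2 arrays (30477 probe sets). Differences were fitted with limma 3.58.1 in R 4.3.3 (lmFit, eBayes) and adjusted by Benjamini-Hochberg over all tested probe sets, with a threshold of 0.05. The study's methods name limma and no covariate, and the main model held culture alone. The experiment number in the labels is shared by both groups and pairs the arrays. Arrays of one experiment deviated together from their group means, and the correlation was 0.75 for the pair of experiment 1, whereas the pairs of experiment 2 gave 0.56 and 0.72. Deviations within a group mirror each other by construction, so these 3 values reflect 1 contrast and are not separate evidence for pairing. Values from the fit with this block stand beside the main ones where they change a call. Experiment and interaction were fitted with culture in the model. An exact permutation of 2 against 3 arrays cannot go below p = 0.1, so none was used. Code for the limma fits was tested on simulated data.

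Array values are given for members called in either fit, for the 2 of each class with the largest fitted difference and the 1 with the smallest, and for further members chosen after their values were seen. Of the other amino acid lists, up to 4 called genes are named, or the 2 with the largest difference. Members, lists and motifs were chosen with earlier results of these data known. Between the 2 cultured arrays of experiment 2 the SD of log2 differences was 0.24, against 0.40 to 0.72 for all other pairs of arrays. Promoters are from RefSeq (GRCm38.p6). Alternatives were the block, averaging both cultured arrays of experiment 2, filters, normalization, variance moderation, the mean of all probe sets of a gene and leaving out each array.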

Additional observations from a re-analysis of the deposited data

Results flagged for a closer look

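For 5 members the cultured array of experiment 1 lay on one side of its ex vivo array and both cultured arrays of experiment 2 on the other. The culture difference of experiment 2 minus that of experiment 1 was -0.74 on the log2 scale for Tars, -0.67 for Cars, -0.58 for Slc7a1, -0.36 for Lars and 0.29 for Cbs. Cars, Lars, Slc7a1 and Tars stood higher in culture in experiment 1 and lower in experiment 2, and Cbs the reverse. Some differences of experiment 2 were small, among them -0.0036 for Slc7a1, -0.012 for Lars and 0.0064 for Cbs. No other probe set of Cars, Slc7a1 or Cbs showed this pattern. For 1 other probe set of Slc7a1 the differences were 0.50 in experiment 1 and 0.33 and 0.22 in experiment 2. In the limma interaction fit none of the 5 was called (adjusted p = 0.655 for Tars, 0.654 for Cars, 0.654 for Slc7a1, 0.654 for Lars and 0.659 for Cbs). The residual of that fit comes from the cultured arrays of experiment 2 alone, so these p-values say little about the spread between experiments.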

How the results depend on the processing

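Of 520 differences of single members under alternative settings, 481 kept their direction and their side of the threshold, 5 passed it and 34 turned sign, 10 of these in settings that kept all arrays. The count of members called higher was 0 in the culture fit, 1 with the experiment as a replicate block and 1 with quantile normalization and the block. With the mean of all tested probe sets of a gene and the block it was 2, Mthfd1l and Slc1a4 (0.66, limma, adjusted p = 0.0334); both of these combined settings were chosen after seeing the data. With an array left out it ran from 0 to 1. No member was called lower under any of these settings. The median member difference ran from 0.14, without the cultured array of experiment 1, to 0.35.

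Over all probe sets, 14 were called for culture. The count was 550 with the replicate block, 0 with both cultured arrays of experiment 2 averaged, 187 with averaging and the block, 664 with quantile normalization and the block, and 531 genes with the mean of probe sets and the block. With the block and without replicate 1 or 2 of experiment 2 it was 271 or 153. The count was 5 without the filter, 3 over the 10000 brightest probe sets, 22 with a variance trend and 25 genes with the mean of probe sets. With an array left out it ran from 0 to 271, and was 257 without the cultured array of experiment 1. The cause was not tested.

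Tars was at -0.047 and gave 0.057 with the block, 0.062 with quantile normalization and the block, 0.057 with the mean of probe sets and the block, 0.0166 with the block without replicate 2 of experiment 2, and 0.11 with averaging, with or without the block. Wars was at 0.20 and gave -0.0126 with the block, -0.0113 with quantile normalization and the block, -0.0515 with the block without replicate 1 of experiment 2, and -0.0234 with averaging, with or without the block. Aars was at 0.034 and gave -0.0175 with median centring. With an array left out, 14 members turned sign at least once. Ranges were -0.36 to 0.20 for Tars, -0.40 to 0.81 for Wars, -0.57 to 0.64 for Aars, -0.15 to 0.31 for Cars, -0.48 to 0.62 for Phgdh, -0.046 to 0.83 for Slc1a4, -0.13 to 0.27 for Slc38a2, -0.17 to 0.46 for Eprs, -0.0549 to 0.45 for Psph, -0.12 to 0.0405 for Cbs, -0.23 to 0.53 for Slc7a5, -0.0166 to 0.41 for Gars, -0.022 to 0.16 for Lars and -0.12 to 0.22 for Mars1.

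Members called for the experiment numbered 7 to 10 over 5 alternatives, and 0 were called for the interaction under each of them. The interaction fit has 1 residual degree of freedom, from the cultured arrays of experiment 2, so its count of 0 says nothing about stability. Members near the floor, Cth and Slc7a11, have levels that the signal over background limits.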

Other observations

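Outside the 32 members, several amino acid genes, chosen after their values were seen, were set apart by experiment. Slc43a1, a carrier of large neutral amino acids, read 7.82 and 9.37 ex vivo and 8.03, 10.01 and 9.73 after culture and was higher in experiment 2 by 1.71 with an SE of 0.14 (limma, adjusted p = 0.00311). Arg2 was higher in experiment 2 by 1.38 with an SE of 0.12 (limma, adjusted p = 0.00339). Cebpb, a C/EBP partner of ATF4, read 9.93 and 8.53 ex vivo and 10.33, 8.27 and 8.44 after culture and was lower in experiment 2, with a log2 difference of -1.73 and an SE of 0.17 (limma, adjusted p = 0.00381). Qars, which charges the glutamine tRNA, was lower in experiment 2 as well, at -0.98 with an SE of 0.11 (limma, adjusted p = 0.00477). These values come from 1 of 4 probe sets for Qars, of the type used for Phgdh, and from 1 of 2 for Cebpb and for Arg2. Their other probe sets were not compared, and differences between experiments often changed sign over the probe sets of a member.

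Proliferation genes stood lower after culture, with a median difference of -0.61 over 9 tested genes. Their summed intensity ran from 4805.2 to 4848.5 ex vivo and from 3141.0 to 3389.7 after culture. Of the 9, 7 were lower in both experiments, against 9646 of all 30477 tested probe sets, and 2 were higher in the mean of experiment 2, by up to 0.22. With the experiment as a block, 1 of 9 was called lower, against 0.561% of all probe sets. This was Mcm5, a subunit of the replicative helicase, whose log2 difference was -1.25 with an SE of 0.17 (limma, adjusted p = 0.0348). Without the block it was -1.06 with an SE of 0.52 (limma, adjusted p = 0.831).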
